A study of Mus musculus with 4 samples.

Results

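Erythroid cells, the precursors of red blood cells, were taken from the submandibular and the parotid mesenchyme libraries of embryonic mouse salivary glands as barcodes in which genes with symbols starting Hba or Hbb held at least 20% of the UMIs (unique molecular identifiers, tags by which copies of 1 RNA molecule are counted once). The rule took 132 of 4971 barcodes from submandibular mesenchyme (2.66%, 95% Clopper-Pearson interval 2.23 to 3.14%) and 87 of 4488 from parotid mesenchyme (1.94%, 1.56 to 2.39%). Together these were 219 of the 9459 mesenchyme barcodes, out of 15351 in the series. Both libraries came from ICR mouse embryos at embryonic day 12, with approximately 10 glands pooled for each gland type. The mesenchyme was parted from its epithelium with dispase, dissociated with cold-active protease and run through 10x Chromium droplets. The comparison cells were the 3684 submandibular and 3564 parotid barcodes with at least 2 UMIs of Pdgfra and Col3a1 together, the genes of a growth factor receptor and a fibrillar collagen of mesenchyme. Each gland had 1 library, so no difference here has a replicate or a test, and every interval is a 95% interval that covers counting error only.

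Haemoglobin is built from alpha-like and beta-like globin chains around haem, and each family is made from a cluster of genes that are used in turn during development. In the mouse, the first red cells arise in the yolk sac, enter the blood while still nucleated, and carry the embryonic chains of Hba-x (zeta), Hbb-y (epsilon-y) and Hbb-bh1 (beta-h1) beside adult alpha chains. Definitive red cells, first made in the fetal liver, use the adult genes Hba-a1, Hba-a2, Hbb-bs and Hbb-bt and lose their nucleus, and as red cells mature they also shed mitochondria, ribosomes and most transcripts that do not serve haemoglobin, the membrane skeleton or protection from oxidation.

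In GRCm38 coordinates the beta-like genes lie on the minus strand of chromosome 7, with Hbb-y at 103851749 to 103853216, Hbb-bh1 at 103841637 to 103843164, Hbb-bs at 103826534 to 103828096 and Hbb-bt at 103812524 to 103813996. The alpha-like genes lie on the plus strand of chromosome 11, with Hba-x at 32276400 to 32278116, Hba-a1 at 32283511 to 32284465 and Hba-a2 at 32296489 to 32297298. The spliced transcripts of Hba-a1 and Hba-a2 differed at 1 of 538 aligned bases (99.8% identity), and those of Hbb-bs and Hbb-bt at 46 of 626 (92.65%). Identity was lower between embryonic and adult genes, at 66.9% between Hba-x and Hba-a1 and 71.3% between Hbb-y and Hbb-bs. The counting may therefore have split or dropped reads of Hba-a1 and Hba-a2, and their separate values are uncertain.

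The promoters of genes whose levels set these cells apart are shown because the adult alpha genes have nearly the same bases there, while the other pairs compared within a cluster do not. Each is the RefSeq window of 250 bases before to 50 after the annotated start (GRCm38.p6), written 5′ to 3′ along the gene. The windows are Hbb-y at chr7:103853158-103853457, Hbb-bs at chr7:103827879-103828178, Hba-x at chr11:32276350-32276649, Hba-a1 at chr11:32283422-32283721, Hba-a2 at chr11:32296242-32296541 and Alas2, the gene of the erythroid enzyme that starts haem synthesis, at chrX:150547167-150547466. The Hbb genes are on the minus strand and the others on the plus strand. Capitals mark matches to letters known from red cell regulators or the basal machinery. The GATA motif was searched as AGATAA with a final A or G (AGATAG), and likewise with a first T in place of A (TGATAA and also TGATAG). The GATA letters, CACCC and also CCAAT were searched on both strands, and a TATA box as TATAAA or else CATAAA on the gene's own strand.
Hbb-y: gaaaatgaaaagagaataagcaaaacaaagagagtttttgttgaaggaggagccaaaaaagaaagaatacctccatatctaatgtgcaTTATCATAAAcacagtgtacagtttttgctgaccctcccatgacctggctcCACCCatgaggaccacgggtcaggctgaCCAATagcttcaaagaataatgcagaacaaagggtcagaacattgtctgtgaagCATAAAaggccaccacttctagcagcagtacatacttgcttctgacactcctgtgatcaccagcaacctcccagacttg
Hbb-bs: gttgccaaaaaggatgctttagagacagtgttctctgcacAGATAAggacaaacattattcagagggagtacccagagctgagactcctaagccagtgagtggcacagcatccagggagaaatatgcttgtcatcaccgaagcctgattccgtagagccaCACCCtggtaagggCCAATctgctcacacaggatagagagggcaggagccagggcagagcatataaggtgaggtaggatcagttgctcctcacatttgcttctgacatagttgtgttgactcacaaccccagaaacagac
Hba-x: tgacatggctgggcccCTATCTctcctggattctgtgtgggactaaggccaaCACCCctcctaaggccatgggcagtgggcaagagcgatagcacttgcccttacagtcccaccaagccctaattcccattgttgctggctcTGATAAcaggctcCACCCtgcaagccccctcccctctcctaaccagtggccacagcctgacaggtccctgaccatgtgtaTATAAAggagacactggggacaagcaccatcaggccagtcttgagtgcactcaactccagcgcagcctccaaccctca
Hba-a1: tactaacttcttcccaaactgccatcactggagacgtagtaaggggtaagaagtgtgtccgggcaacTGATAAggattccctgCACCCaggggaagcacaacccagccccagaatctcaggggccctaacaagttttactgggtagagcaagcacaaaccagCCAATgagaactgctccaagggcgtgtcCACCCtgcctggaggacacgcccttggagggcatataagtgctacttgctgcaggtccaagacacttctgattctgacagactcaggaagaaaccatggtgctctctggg
Hba-a2: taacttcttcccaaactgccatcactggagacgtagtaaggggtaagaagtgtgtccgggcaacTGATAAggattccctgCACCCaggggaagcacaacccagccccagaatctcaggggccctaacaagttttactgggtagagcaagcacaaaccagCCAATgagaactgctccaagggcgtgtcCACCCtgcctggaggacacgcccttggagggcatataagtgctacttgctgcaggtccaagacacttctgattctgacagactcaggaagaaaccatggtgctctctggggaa
Alas2: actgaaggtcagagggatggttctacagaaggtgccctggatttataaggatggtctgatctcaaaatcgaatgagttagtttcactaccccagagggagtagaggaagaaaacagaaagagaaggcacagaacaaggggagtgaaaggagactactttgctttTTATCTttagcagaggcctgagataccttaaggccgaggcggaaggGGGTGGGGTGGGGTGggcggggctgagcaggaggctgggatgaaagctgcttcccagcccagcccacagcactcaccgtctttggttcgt
The Hba-a1 and Hba-a2 windows shared a run of 297 of their 300 bases, with a shift of 3, whereas the longest run shared by Hba-a1 and Hba-x was 10 bases. That of Hbb-bs and Hbb-y was 12, and that of the adult pair Hbb-bs and Hbb-bt 14. Hbb-y held 1 GATA, 1 CACCC, 1 CCAAT and 2 TATA-type matches, the first of which overlaps the GATA match. Hbb-bs held 1 GATA, 1 CACCC and 1 CCAAT match. Hba-x held 2 GATA, 2 CACCC and 1 TATA match, and Hba-a1 and Hba-a2 each held 1 GATA, 2 CACCC and 1 CCAAT match. Alas2 had 1 GATA match and 3 CACCC matches. Hbb-bt, not printed, had 3 CACCC, 3 CCAAT and 1 TATA match. Among 32544 RefSeq promoter windows of the same length, 29.64% held the GATA letters, 57.65% CACCC, 37.36% CCAAT and 13.97% the TATA letters. A match describes the letters and does not show binding. The letters catataa in the Hbb-bs, Hba-a1 and Hba-a2 windows were outside the TATA search. A lack of matches there does not show that a TATA box is absent.

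The haemoglobin share, which chose the cells, ran from 32.8% to 92.5% of UMIs in submandibular erythroid cells (median 86.8%) and from 35.9% to 96.9% in parotid ones (median 88.4%). Its median in the comparison cells was 0.0833% (submandibular) and 0.0762% (parotid). Few barcodes lay near the threshold. The values just inside it were 32.8, 52.9 and 57.8% in submandibular and 35.9, 41.5 and 41.6% in parotid mesenchyme. Those just outside it were 7.35, 5.52 and 3.47% in submandibular and 15.3, 5.64 and 2.53% in parotid mesenchyme. In the binned plot of haemoglobin share, 0 submandibular barcodes and 1 parotid barcode fell between 10 and 20%.

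**Figure D1:**
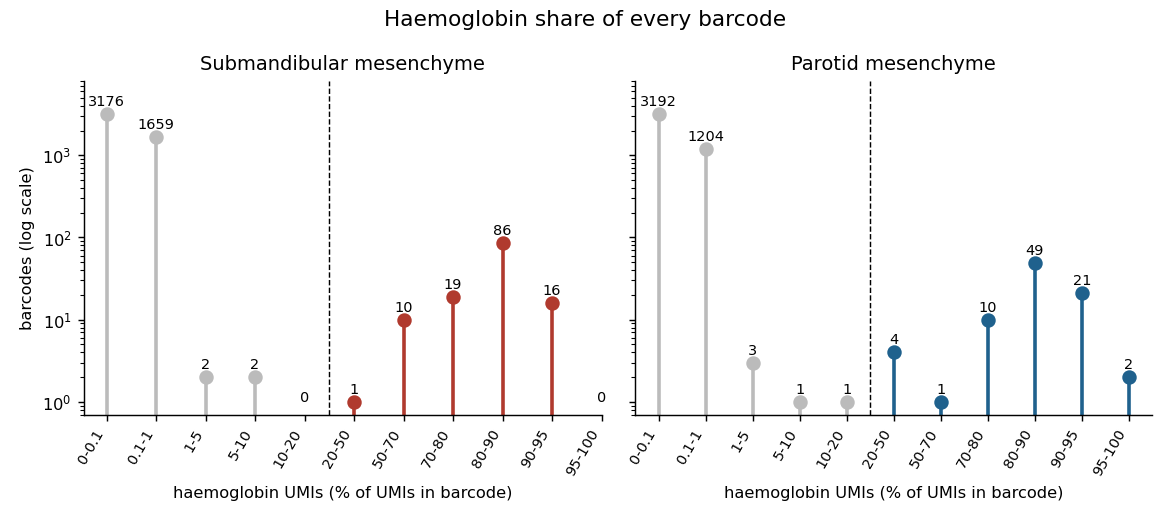
Number of barcodes (log axis) by the percent of UMIs from Hba and Hbb genes, with the submandibular mesenchyme library left and the parotid one right. The dashed line is the 20% threshold. Most barcodes lie under 1% and a separate group lies mainly at 80 to 95%.

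Erythroid cells were the more deeply captured class in all UMIs and the shallower one in everything other than haemoglobin. Their median was 16148 UMIs in submandibular and 16112 in parotid mesenchyme, against 5350.5 and 5625 in the comparison cells. Without haemoglobin genes the medians were 2053.5 and 1855 UMIs, against 5346.5 and 5618. The genes detected per cell numbered 683.5 and 670 at the median in erythroid cells, against 2197 and 2208.5. Non-haemoglobin RNA of erythroid cells was spread over fewer genes also at equal depth. After each cell was thinned at random to 1000 non-haemoglobin UMIs, which left out 15 submandibular and 10 parotid erythroid cells, the erythroid medians were 441 and 444 genes, against 655 and 652.

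RNA of other cells was present in the erythroid barcodes and globin RNA in the others. The libraries held 32036980 (submandibular) and 30815632 (parotid) UMIs and shared 34 cell barcodes, of which 1 was erythroid in the submandibular library and 0 in the parotid one. Per erythroid cell there were 12798 (submandibular) and 13170 (parotid) haemoglobin UMIs, against 5.25 and 5.69 per comparison cell, of which 98.2% and 97.8% held at least 1. The 16 mesenchymal markers summed to 1056.7 CPM (UMI counts scaled to a total of 1000000 over genes other than Hba and Hbb genes) in submandibular and to 1101 CPM in parotid erythroid cells, 23.05% and 20.1% of the level in the comparison cells. In the 96 submandibular and 67 parotid erythroid cells with 0 Pdgfra and Col3a1 UMIs, the sum was 8.11% and 7.04% of that level. Both genes are among the 16 markers, so this choice of cells itself lowers the sum. The erythroid cells that also met the Pdgfra and Col3a1 rule numbered 11 and 6 and stayed in.

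Of the parotid erythroid cells, 3 carried 5 or more UMIs of endothelial or skeletal muscle markers. One had 75 and one 35 UMIs of endothelial markers, and the other had 97 UMIs of skeletal muscle markers. They had haemoglobin shares of 41.5, 35.9 and 45.6%, held 3059, 2027 and 3772 genes, and supplied 34453 (16.1%) of the non-haemoglobin UMIs of the parotid erythroid cells. With them the endothelial markers summed to 562 CPM and the muscle markers to 642 CPM in parotid erythroid cells, and without them to 50.3 and 223.5 CPM. No submandibular erythroid cell had 5 or more UMIs of either list, and the submandibular sums were 39.9 and 49.15 CPM. Submandibular erythroid cells nevertheless reached 3046 genes, against a median of 683.5, so doublets of other kinds may be among them. Macrophage markers summed to 15.4 and 14.1 CPM in submandibular and parotid erythroid cells, against 22.3 and 4.16 CPM in the comparison cells, and C1qb, a complement gene of macrophages, was in 0 thinned erythroid cells of either library. Megakaryocyte and platelet markers summed to 156.7 and 159.3 CPM, against 155 and 143.3 CPM, with 8 of 11 of them at 0 in erythroid cells. Epithelial markers summed to 9.21 and 9.37 CPM, against 22.3 and 9.91 CPM. Doublets were not removed, and the part of these RNAs in the results was not tested except where a value without them is given.

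Hbb-y, the embryonic epsilon-y gene, was the main beta-like globin of the pooled erythroid cells and Hba-a1 the main alpha-like one. Hbb-y supplied 75.5% of beta-like UMIs in submandibular and 70.25% in parotid cells, or 5885 and 5197.6 UMIs per cell. The adult genes Hbb-bs and Hbb-bt supplied 18.5 and 4.15% in submandibular and 23.4 and 4.40% in parotid cells. Hbb-bh1, the beta-h1 gene, supplied 1.91% in both, at 148.9 and 141.6 UMIs per cell. Together the adult genes held 22.6% of beta-like UMIs in submandibular (22.5 to 22.7%) and 27.8% in parotid cells (27.7 to 27.9%). With UMIs divided by transcript length, these shares were 22.4 and 27.6%.

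Among the alpha-like genes, Hba-a1 supplied 78.45% of UMIs in submandibular and 72.3% in parotid cells, at 3922.8 and 4171.5 UMIs per cell. Hba-x, the embryonic zeta gene, supplied 15.4 and 10.8%, at 770.5 and 625.4 UMIs per cell, or 13.5 and 9.18% per length. Embryonic genes thus held most of the beta-like UMIs and the minority of the alpha-like ones in both libraries. Alpha-like UMIs numbered 0.641 per beta-like UMI in submandibular and 0.780 in parotid cells. The minor locus genes were scarce, with 15 UMIs of Hbb-bh2 in all submandibular and 8 in all parotid erythroid cells, 50 and 13 of Hbq1a, and 186 and 96 of Hbq1b.

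Of the globin genes, Hba-a2, an adult alpha gene, parted the erythroid cells of the mesenchyme libraries without overlap. It held 6.14% of alpha-like UMIs in submandibular and 16.9% in parotid erythroid cells, or 307 and 974 UMIs per cell. Cell by cell its share was 2.13 to 8.24% in submandibular (median 6.14%) and 10.4 to 20.0% in parotid cells (median 16.9%), so that no cell of one library reached the range of the other. In cells with only adult beta-like RNA the median was 7.27% in submandibular and 17.8% in parotid cells, and in cells with embryonic beta-like RNA 6.09 and 16.7%. The alpha-like UMIs found in the comparison cells had Hba-a2 at 10.6% (submandibular) and 15.1% (parotid). The 5 erythroid barcodes of the parotid epithelium library ranged over 6.64 to 10.7% (median 8.88%), which overlaps the ranges of both mesenchyme libraries. The cell ranges were compared after they were seen, Hba-a1 and Hba-a2 transcripts differ at a single aligned base, and gland, pool and library cannot be told apart.

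**Figure D2:**
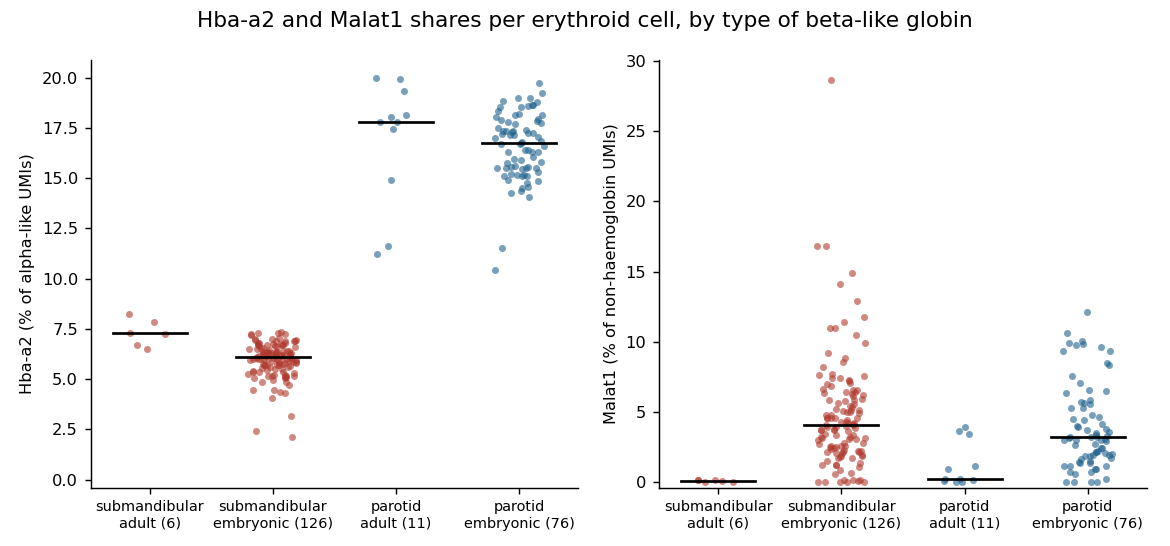
Each point is 1 erythroid cell and bars are medians. One panel plots the percent of alpha-like UMIs from Hba-a2 and the other the percent of non-haemoglobin UMIs from Malat1, for cells with only adult and with embryonic beta-like RNA of each library. Hba-a2 lies at 2.13 to 8.24% in submandibular and at 10.4 to 20.0% in parotid cells, and the lowest Malat1 medians are those of the cells with only adult beta-like RNA.

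The erythroid cells were of 2 kinds by their beta-like RNA, with none between. In 6 submandibular and 11 parotid cells adult genes held over 99% of beta-like UMIs, and in the other 126 and 76 cells they held under 40%. The kinds are called adult-only and embryonic cells here, after the RNA that parts them. In adult-only cells the adult share was 99.8 to 99.9% in submandibular and 99.5 to 100% in parotid mesenchyme, and in embryonic cells it was 1.77 to 33.4% (median 18.2%) and 2.48 to 36.1% (median 19.7%). Total UMIs per cell overlapped between the kinds, with medians of 14379.5 and 11579 in adult-only and 16338.5 and 16656.5 in embryonic cells.

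The alpha-like genes, which did not enter this split, followed it. Hba-x held at most 0.0430% of alpha-like UMIs in submandibular and 0.0495% in parotid adult-only cells, and at least 3.81% and 3.23% in embryonic cells. The ranges did not overlap in either library. Hba-a1 supplied 92.65 and 82.1% of alpha-like UMIs of adult-only cells. Their beta-like UMIs were 76.1 and 78.6% Hbb-bs and 23.75 and 21.3% Hbb-bt. Hbb-y summed to 61 UMIs over the 6 submandibular and 42 over the 11 parotid adult-only cells, and Hbb-bh1 held at most 0.0238 and 0.446% of beta-like UMIs in any of them. Hbb-bh1, Hbb-y and Hba-x, which are 3 of the 4 genes listed as markers of these cells, were thus at or near 0 in the adult-only cells.

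**Figure D3:**
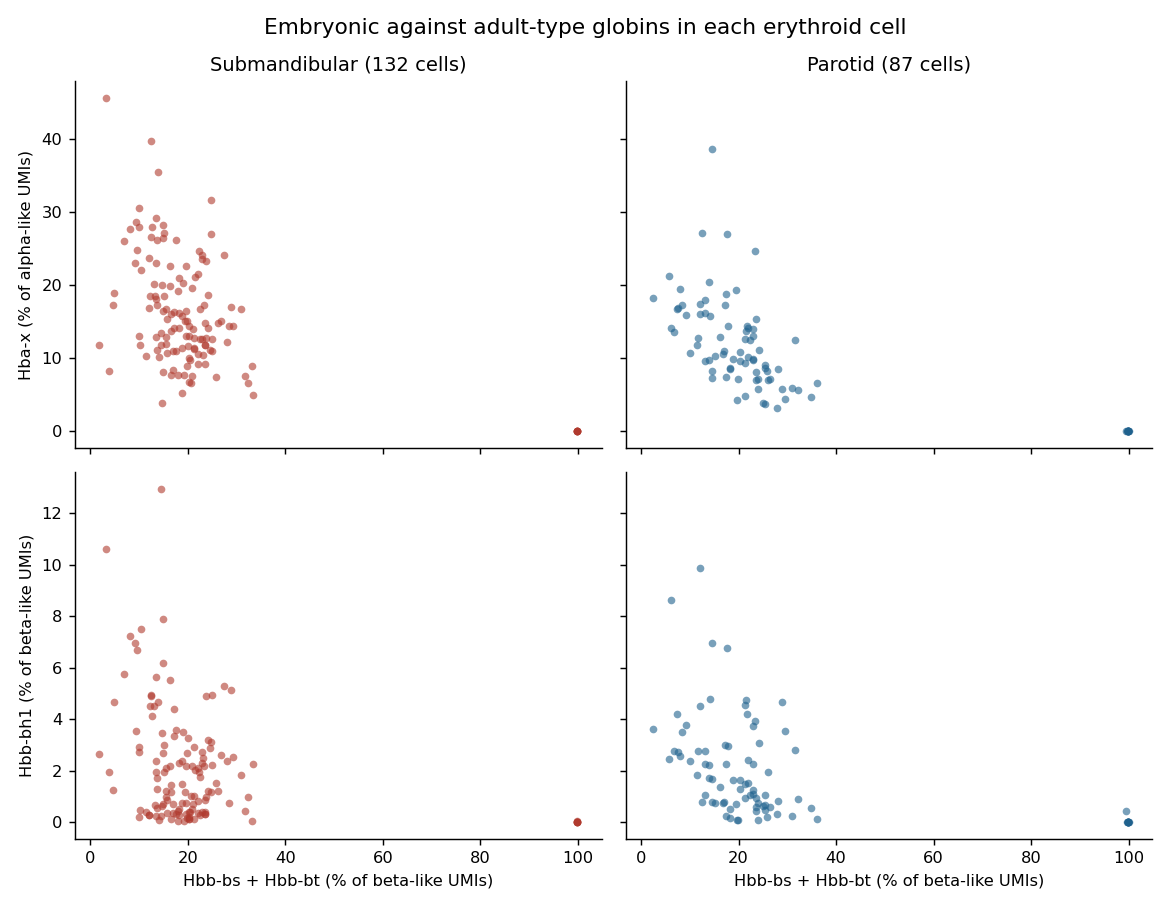
Each point is 1 erythroid cell of the submandibular (left) or parotid (right) library. The horizontal axis is the adult percent of its beta-like UMIs, and the vertical axes are the percent of alpha-like UMIs from Hba-x (top) and of beta-like UMIs from Hbb-bh1 (bottom). Cells with over 99% adult beta-like RNA lie at or near 0 on both vertical axes, and no cell lies between 40 and 90%.

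Among embryonic cells the shares of Hba-x and Hbb-bh1 varied widely. Hba-x held 3.81 to 45.6% of alpha-like UMIs in submandibular (median 14.9%) and 3.23 to 38.6% in parotid cells (median 10.8%). Hbb-bh1 held 0.0379 to 13.0% (median 1.75%) and 0.0654 to 9.88% (median 1.62%) of beta-like UMIs. Across cells, the shares of Hbb-bh1 and Hba-x had a Spearman correlation of 0.58 over 126 submandibular and 0.66 over 76 parotid embryonic cells, and the adult beta-like share and Hba-x had -0.34 and -0.65. These are descriptions, since the cells of a library share its pool, capture and depth. The Hba-x share correlated at 0.31 and 0.36 with a cell's non-haemoglobin UMIs and at -0.01 and -0.03 with all its UMIs. In cells with under 10% adult beta-like UMIs, which were 11 submandibular and 9 parotid cells, Hbb-bh1 held 4.04 and 3.99% of the summed beta-like UMIs and Hba-x 19.75 and 16.9% of the alpha-like ones. In cells with 10 to under 50%, Hbb-bh1 held 1.86 and 1.92% and Hba-x 15.8 and 11.35%.

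Genes outside the globin loci also differed in summed level between adult-only and embryonic cells, as a description of few cells ranked after their values were seen. Cd24a, which encodes a small surface glycoprotein, was 9.12-fold higher in submandibular and 9.66-fold higher in parotid adult-only cells. It also had UMIs in 65 of 126 submandibular and 40 of 76 parotid embryonic cells. Ube2c, the gene of a ubiquitin-conjugating enzyme that acts on cell cycle proteins, stood at 3488.6 CPM in submandibular adult-only cells, against 266 CPM in embryonic cells (13.1-fold), and at 3306 against 79.1 CPM in parotid cells (41.8-fold), with UMIs in 6 of 6 submandibular and 9 of 11 parotid adult-only cells. Of its 79 parotid adult-only UMIs 48 were in 1 cell, without which it was 18.98-fold higher. In submandibular cells the ranges overlapped, since 19 of 126 embryonic cells also had Ube2c, with up to 26 UMIs in a cell, against up to 12 in an adult-only cell. Gmpr, the gene of a guanine nucleotide enzyme, was 37.0-fold and 19.04-fold higher, and Slc2a1, of the glucose transporter GLUT1, 56.7-fold and 23.1-fold higher from 7 submandibular and 32 parotid UMIs. Of the 7, 5 were in 1 cell, and without it Slc2a1 was 19.4-fold higher there. Slc2a1 had UMIs in only 3 of 6 submandibular and 4 of 11 parotid adult-only cells. Alas2 was 3.41-fold higher in submandibular adult-only cells, and its ratio in parotid cells was 1.56.

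Other genes were lower in the adult-only cells. Nudt4, a phosphohydrolase gene, stood at 1026 CPM in submandibular adult-only cells, against 14098 CPM in embryonic cells (13.7-fold lower), and at 1004.5 against 11644 CPM in parotid cells (11.6-fold lower). Hsd3b6, a steroid dehydrogenase gene, stood at 718 against 6399.7 CPM (8.91-fold lower) and at 795 against 3909.5 CPM (4.92-fold lower). Cd59a, which encodes an inhibitor of complement on the cell surface, stood at 102.6 against 2517 CPM and at 335 against 2316 CPM. Fth1, the ferritin heavy chain, stood in adult-only cells at 0.560 times its submandibular and 0.355 times its parotid level in embryonic cells.

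Summed over lists, adult-only cells held more of their non-haemoglobin RNA in membrane and haem genes. Genes of the red cell membrane and skeleton held 33039 CPM in submandibular adult-only cells, against 6783 CPM in embryonic cells, and 28795 against 5619 CPM in parotid cells. Genes of haem synthesis and mitochondrial import held 51200.5 against 16438 CPM and 31222 against 14446 CPM. Ribosomal protein genes held a smaller share in adult-only cells, at 11.75% against 20.1% and 12.25% against 21.2%. With cells limited to those with 0 Pdgfra and Col3a1 UMIs and without the 3 parotid cells above, 6 submandibular and 8 parotid adult-only cells remained, in which Nudt4 was 15.2-fold and 8.23-fold lower than in embryonic cells. In the parotid cells so limited Ube2c was 69.6-fold higher, from 77 UMIs in the adult-only cells. The adult-only cell with 48 Ube2c UMIs was still in this set, and the ratio without that cell was not tested here. In the same parotid cells Cd59a was 18.8-fold lower, at 163 against 3058 CPM, and Hsd3b6 was 3.29-fold lower.

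Malat1, a noncoding RNA retained in the nucleus, was at few UMIs in most adult-only cells. It had 0 to 2 UMIs in each of the 6 submandibular adult-only cells, with a median of 0.0947% of non-haemoglobin UMIs, against a median of 97 UMIs and 4.105% in embryonic cells. In the 11 parotid adult-only cells it had 0 to 225 UMIs with a median of 9 (0.243%), against medians of 72.5 UMIs and 3.18% in embryonic cells. It was under 0.5% in 6 of 6 submandibular and 6 of 11 parotid adult-only cells, and in 9 of 126 and 5 of 76 embryonic cells. The ranges overlapped in both libraries, since 4 embryonic cells of each library had 0 Malat1 UMIs. Of the parotid adult-only cells 2, and of the submandibular ones 0, also carried at least 2 UMIs of Pdgfra and Col3a1, and the part of such RNA in their Malat1 was not tested. Mitochondrially encoded genes had medians of 4.275% and 3.47% of non-haemoglobin UMIs in adult-only cells, against 2.104 and 1.40% in embryonic cells.

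Set against the Pdgfra and Col3a1 cells, erythroid cells had lower levels of a broad set of transcripts and higher levels of red cell genes. A gene was called higher or lower with at least 50 CPM in the higher class and a ratio of at least 2. Of 3373 genes with at least 50 CPM in submandibular cells, 444 (13.2%) were higher and 1695 (50.3%) lower in erythroid cells, with a median log2 ratio of -1.003. Of 3308 in parotid cells, 462 (14.0%) were higher and 1469 (44.4%) lower, with a median of -0.85. The 352 genes higher in both were 79.3% of the submandibular and 76.2% of the parotid calls, and the 1068 lower in both were 63.0 and 72.7%. Scaling by trimmed means (TMM) moved every ratio by 0.89 (submandibular) and 0.58 (parotid) on the log2 scale and gave 877 higher and 417 lower genes in submandibular and 700 higher and 611 lower ones in parotid cells. Without the 3 parotid cells the parotid counts were 489 and 1704. The cells were chosen by their haemoglobin RNA, so these counts and the values that follow are a description. A gene under 50 CPM in comparison cells entered only through its level in erythroid cells. Such a gene could not be called lower, which holds for many red cell genes. Likewise, a gene under 50 CPM in erythroid cells entered only through the comparison cells and could not be called higher. That holds for several mesenchymal and S phase genes.

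Haem genes were higher in erythroid cells with few exceptions. Of the 14 genes of haem synthesis and mitochondrial import with at least 50 CPM, 13 were higher and 0 lower in submandibular erythroid cells, and 12 and 0 of 14 in parotid ones, against the 13.2% and 14.0% of all genes given above, with median log2 ratios of 3.85 and 3.56. Alas2 stood at 6168 CPM in submandibular erythroid cells, against 0.678 CPM in comparison cells, and at 5777 against 1.50 CPM in parotid ones, which is 9094-fold and 3840.7-fold higher. Fech, the ferrochelatase that puts iron into haem, stood at 4094.7 against 35.04 CPM and at 3696.7 against 45.3 CPM. Slc25a37, mitoferrin, which brings iron into mitochondria, stood at 1499 against 5.20 CPM and at 1457 against 8.36 CPM. Alad, Urod, Cpox and Ppox, further enzymes of the pathway, were also higher in both libraries. Alas1, the form of the first enzyme used in other tissues, stayed under 50 CPM at 12.3 against 35.3 CPM and 9.37 against 28.1 CPM. Tmem14c, a haem precursor transporter, was under 2-fold in both (log2 0.20 and 0.34), and Slc25a38, a glycine carrier, in the parotid library (0.93).

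Iron genes were mostly higher, ferritin among them. Fth1 stood at 54226 CPM in submandibular erythroid cells, against 1359 CPM in comparison cells, and at 46403 against 1355.6 CPM in parotid ones (39.9-fold and 34.2-fold). Ftl1, the light chain, stood at 56192 against 5032 CPM and at 63580 against 7685.7 CPM (11.2-fold and 8.27-fold). The pair made up 11.04% of non-haemoglobin UMIs of submandibular and 11% of parotid erythroid cells, against 0.639 and 0.904% in comparison cells. Blvrb, biliverdin reductase B, was 65.6-fold and 79.6-fold higher, and Hmox1, haem oxygenase 1, stood at 350.2 against 24.0 CPM and 201.5 against 29.8 CPM. Tfrc, the transferrin receptor through which iron enters, was 7.085-fold and 12.5-fold higher at only 52.2 and 56.2 CPM. Its parotid level rested mostly on 3 adult-only cells with 9 UMIs (376.7 CPM), against 3 UMIs in embryonic cells (15.8 CPM). Submandibular adult-only cells had 0 Tfrc UMIs and embryonic cells 17. Against 13.2% and 14.0% of all genes higher, 7 of 9 genes of the list at 50 CPM were higher and 0 lower in each library. The others were Pcbp1 and Pcbp2, iron chaperones, at log2 -0.85 and -0.35 in submandibular and -0.45 and -0.30 in parotid cells.

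Transcription factors of the red cell programme stood at lower levels in erythroid cells than the ferritin genes did. Most of those with at least 50 CPM were higher than in comparison cells. Tal1 stood at 242.7 CPM in submandibular erythroid cells, against 0.271 CPM in comparison cells, and at 243.6 against 0.0885 CPM in parotid ones. Klf1, the factor that activates the adult beta genes through CACCC letters, stood at 199.7 against 0.678 CPM and 224.9 against 0.531 CPM (294-fold and 424-fold). Gata1, the factor that binds GATA letters, stood at 61.4 against 0.0452 CPM and 89.0 against 0.177 CPM. Of the 20 factors listed, 10 had at least 50 CPM, of which 8 were higher and 1 lower in each library (13.2% and 14.0% of all genes were higher). The lower one was Bcl11a, known as a silencer of embryonic globin genes in definitive cells, at 12.3 against 56.1 CPM (4.57-fold lower) and 9.37 against 146.6 CPM (15.6-fold lower). Of the genes of early progenitors, Kit, Myb and Flt3 had 0 UMIs in the erythroid cells of both libraries, and Gata2 had 0 submandibular and 2 parotid UMIs.

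In the erythropoietin pathway, which supports survival of red cell precursors, Bcl2l1 and Pim1 were higher in both libraries. Bcl2l1, the gene of an inhibitor of cell death, stood at 605 against 35 CPM in submandibular and at 506 against 34.6 CPM in parotid cells (17.3-fold and 14.6-fold). Of the list 3 of 4 genes at 50 CPM were higher and 0 lower in submandibular cells. In parotid cells 2 of 3 were higher and 1 (Socs3) lower. Over all genes 13.2% and 14.0% were higher. Epor, the receptor itself, was under 50 CPM at 49.15 against 0.769 CPM and 32.8 against 0.973 CPM.

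The red cell membrane list had median log2 ratios of 8.81 in submandibular and 8.52 in parotid erythroid cells. Of its genes with at least 50 CPM, 15 of 18 were higher and 1 lower in submandibular erythroid cells. In parotid ones 19 of 20 were higher and 0 lower. The shares higher over all genes were 13.2% and 14.0%. Slc4a1, the anion exchanger band 3, stood at 1127 CPM in submandibular erythroid cells, against 0.181 CPM in comparison cells, and at 1134 against 0.221 CPM in parotid ones. Epb42 (protein 4.2), Rhag (of the Rhesus complex), Kel and Ermap, both blood group genes, were each higher in both libraries. Rhd stood at 540.6 against 0.859 CPM and 590.3 against 0.929 CPM. The lower gene was Cd47, a signal that protects cells from uptake by macrophages, at 21.5 against 73.9 CPM in submandibular cells, while in parotid cells it stood at 140.6 against 103.7 CPM. A few cells carried that parotid level, since 29 of its 30 UMIs were in adult-only cells (1214 CPM), against 1 UMI in the 76 embryonic cells (5.28 CPM). In submandibular cells it stood at 205 CPM from 2 UMIs in adult-only cells, against 15.8 CPM in embryonic cells. Aqp1, a water channel of mature red cells, had 0 UMIs in erythroid cells of both libraries.

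Enzymes of the red cell were higher too. Of those with at least 50 CPM, 11 of 12 were higher in submandibular and 12 of 13 in parotid erythroid cells, with 0 lower. Over all genes 13.2% and 14.0% were higher. Car2, carbonic anhydrase 2, stood at 8594.8 against 10.2 CPM and 7576 against 2.43 CPM. Bpgm, which makes the metabolite that lowers oxygen binding of haemoglobin, stood at 4315.9 against 30.1 CPM and 3270.3 against 33.8 CPM. Gpx1 and Prdx2 encode enzymes that remove peroxides. Gpx1 stood at 12192 against 198 CPM in submandibular and at 9019 against 265.8 CPM in parotid cells, and Prdx2 at 14118 against 1225.6 CPM and 12936 against 1434 CPM. Car1, the carbonic anhydrase of adult red cells, had 0 UMIs in both classes of both libraries. Sod1, a superoxide dismutase, was under 2-fold in both (log2 0.51 and 0.39).

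Genes of organelle clearance and ubiquitin transfer were higher in 12 of 15 cases in each library, with 0 lower, against 13.2% and 14.0% of all genes higher. Bnip3l, a receptor that marks mitochondria for removal in maturing red cells, stood at 3658.5 CPM in submandibular erythroid cells, against 218.6 CPM in comparison cells, and at 2881.5 against 222.4 CPM in parotid ones. Ube2l6, a ubiquitin and ISG15 transfer gene, was 319-fold and 157-fold higher and Mkrn1, a ubiquitin ligase gene, 65.25-fold and 47.6-fold. Map1lc3b, of the autophagosome, stood at 1410 against 220.3 CPM and 1307 against 233.3 CPM. Ube2c and Ubb were among those under 2-fold in both libraries.

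**Figure D4:**
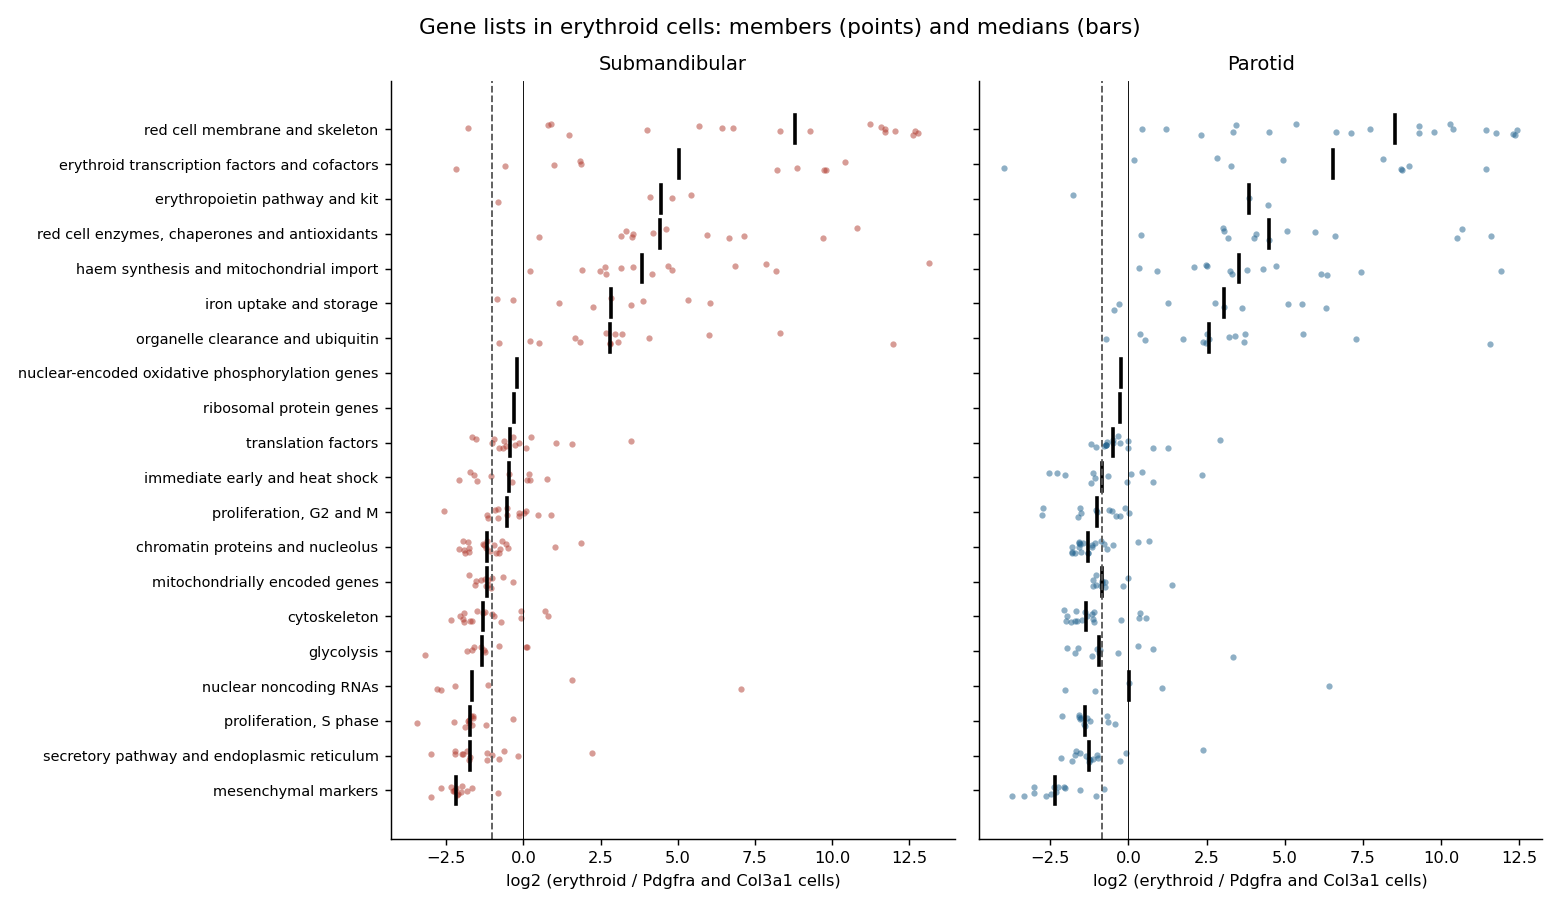
Log2 ratio of erythroid to Pdgfra and Col3a1 cells for the genes of each list with at least 50 CPM, in the submandibular (left) and parotid (right) library. Points are genes, bars are list medians, and the dashed line is the median of all genes tested (-1.003 and -0.85). The ribosomal and oxidative phosphorylation lists show medians only. The haem, iron, factor, membrane, enzyme and clearance lists lie above that line, and the S phase, secretory and cytoskeleton lists lie below it.

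Ranked over all genes by the smaller ratio of the 2 libraries, Ctse, the protease cathepsin E, came first. It stood at 605 CPM in submandibular erythroid cells, against 0.0452 CPM in comparison cells, and at 581 against 0.0442 CPM in parotid ones, each comparison level resting on 1 UMI. Hsd3b6 stood at 6229.6 against 1.04 CPM (5989.9-fold) and 3560.8 against 0.619 CPM (5749-fold). Trim10, a tripartite motif gene of maturing red cells, stood at 552.9 CPM against 0 UMIs in submandibular cells (at least 4076-fold higher, with 3 UMIs over the class as the floor) and at 407.6 against 0.133 CPM in parotid cells. Hemgn (hemogen) stood at 245.7 CPM against 0 UMIs and at 285.8 against 0.177 CPM. Ncf4, a subunit of the phagocyte oxidase, stood at 611 against 0.588 CPM and 726 against 0.0885 CPM.

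Genes of mesenchyme were lower, as the choice of comparison cells sets for Pdgfra and Col3a1. Of 14 mesenchymal markers with at least 50 CPM, 13 were lower in each library, against 50.3% and 44.4% of all genes. Snai2, a mesenchymal transcription factor, stood at 3.07 CPM in submandibular erythroid cells, against 52.0 CPM in comparison cells, and at 4.69 against 59.5 CPM in parotid ones. Dlx2, a homeobox gene of the jaw arches, stood at 0 against 59.4 CPM and 4.69 against 73.0 CPM. Sfrp1, a secreted WNT antagonist, stood at 76.8 against 490.6 CPM and 0 against 118.3 CPM. Myl9, a myosin light chain, stood at 15.4 against 122.3 CPM and 14.1 against 150.9 CPM.

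Transcripts for the cytoskeleton, secretion and DNA replication had medians below that of all genes. Of cytoskeleton genes with at least 50 CPM, 11 of 17 were lower in submandibular and 14 of 18 in parotid erythroid cells, with 0 higher. Their medians were -1.31 and -1.35, against -1.003 and -0.85 over all genes, of which 50.3% and 44.4% were lower. Vim, the intermediate filament vimentin, stood at 168.9 against 849.3 CPM and 356 against 1104 CPM. Of secretory genes 11 of 15 were lower and 1 higher in each library, with medians of -1.74 and -1.25. Sparc, a secreted matrix protein, stood at 39.9 against 319 CPM and 117 against 373 CPM. The higher one was Sec61g, a subunit of the translocation channel, at 6807 against 1464.5 CPM and 8185 against 1556.7 CPM, a direction that turns when CPM are taken over all UMIs, haemoglobin included (log2 -0.41 and -0.28).

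S phase genes were lower in 11 of 12 submandibular and 9 of 12 parotid cases, against 50.3% and 44.4% of all genes, with medians of -1.72 and -1.40. Only 6 of the list's 14 genes had at least 50 CPM in erythroid cells of either library. The rest could not be called higher. Pcna, the sliding clamp of DNA replication, stood at 9.21 CPM in submandibular erythroid cells, against 100.7 CPM in comparison cells, and at 60.9 against 174.3 CPM in parotid ones. Genes of G2 and mitosis had medians of -0.52 and -0.99, with 3 of 14 lower in submandibular and 6 of 13 in parotid cells and 0 higher. The share lower is below that of all genes (50.3%) in submandibular cells and near it (44.4%) in parotid cells. Mki67, a proliferation marker, stood at 52.2 against 52.0 CPM and 37.5 against 41.4 CPM. Top2a, topoisomerase II alpha, stood at 27.65 against 165.7 CPM (5.995-fold lower) and 51.5 against 149.9 CPM (2.91-fold lower). No cell cycle phase was called.

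Nuclear transcripts did not move as one. Neat1, a noncoding RNA that builds nuclear paraspeckles, stood at 178.2 CPM in submandibular erythroid cells, against 1.36 CPM in comparison cells, and at 117 against 1.37 CPM in parotid ones (131-fold and 85.4-fold). Malat1 stood at 39042 against 13237 CPM and 31532 against 14873 CPM (2.95-fold and 2.12-fold), but over all UMIs its log2 ratio was -1.07 and -1.59. Meg3, an imprinted noncoding RNA, stood at 688 against 4796 CPM (6.97-fold lower) and 337 against 1364 CPM. Of 21 genes of chromatin proteins and the nucleolus, 12 were lower and 2 higher in submandibular and 15 and 0 in parotid cells, with medians of -1.18 and -1.31. The submandibular count and median are near those of all genes (50.3% lower, median -1.003), and the parotid ones stand against 44.4% and -0.85. H3f3b, of the replacement histone H3.3, stood at 1533 against 5225 CPM and 1874 against 5585 CPM.

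Mitochondrial transcripts took a smaller share of non-haemoglobin RNA in erythroid cells. They held 2.53% of non-haemoglobin UMIs in submandibular erythroid cells, against 5.27% in comparison cells, and 2.37% against 4.17% in parotid ones. The medians per cell were 42.5 and 28 UMIs in erythroid cells, against 286 and 240. Of 12 mitochondrial genes at 50 CPM, 10 were lower and 0 higher in submandibular cells (median -1.18). In parotid cells 4 were lower and 1 higher (median -0.85, that of all genes). Of all genes 50.3% (submandibular) and 44.4% (parotid) were lower. mt-Cytb, of the respiratory chain, was 2.59-fold and 2.20-fold lower. Nuclear genes of oxidative phosphorylation held 3.80 and 4.01% of non-haemoglobin UMIs in erythroid cells, against 3.76 and 3.82% in comparison cells.

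Ribosomal protein genes held 19.85 and 20.2% of non-haemoglobin UMIs in erythroid cells, against 21.3 and 20.85%. Of 82 such genes at 50 CPM, 3 were higher and 4 lower in submandibular and 2 and 2 in parotid cells. Over all genes 13.2% and 14.0% were higher and 50.3% and 44.4% lower. Rps2 was 3.37-fold and 2.585-fold higher and Rpsa 2.585-fold and 2.01-fold, both turning when CPM are taken over all UMIs (log2 -0.87 and -1.30 for Rps2, -1.26 and -1.66 for Rpsa). Pabpc1, which binds the poly(A) tail of messenger RNA, stood at 6721 CPM in submandibular erythroid cells, against 593 CPM in comparison cells, and at 4807 against 629.8 CPM in parotid ones (11.3-fold and 7.63-fold). Of 16 translation factor genes 3 were higher and 3 lower in submandibular and 2 and 2 in parotid cells.

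Glycolysis genes were lower in 7 of 10 submandibular and 4 of 11 parotid cases, with 0 and 1 higher, against 50.3% and 44.4% of all genes lower. The list medians of -1.33 and -0.95 stand against -1.003 and -0.85 over all genes, so the parotid values are near those of all genes. Pkm, the pyruvate kinase of most tissues, was 3.57-fold and 3.28-fold lower, and Gapdh, a glycolytic dehydrogenase, was under 2-fold in both (log2 0.08 and 0.30). Bnip3, a hypoxia response gene related to Bnip3l, was 6.91-fold and 6.50-fold higher. It was the 1 higher gene among the 2 submandibular and 3 parotid genes of the hypoxia list with at least 50 CPM. The others were lower, namely Hif1a, the oxygen-regulated transcription factor, at 15.4 against 56.4 CPM and 23.4 against 63.9 CPM, and in parotid cells Vegfa, an endothelial growth factor, at 9.37 against 52.2 CPM. The immediate early genes Jun (4.25-fold and 4.095-fold) and Fos (3.33-fold and 5.88-fold), of the AP-1 transcription factor, were lower in erythroid cells of both libraries.

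The share of cells with a UMI was compared at equal depth. After thinning to 1000 non-haemoglobin UMIs, Alas2 was in 98.3% of 117 submandibular erythroid cells, against 0.0543% of comparison cells, and in 97.4% of 77 parotid ones, against 0.168%. Without thinning, at median depths of 2053.5 and 1855 UMIs against 5346.5 and 5618, it was in 98.5% of all 132 submandibular erythroid cells. Klf1 was in 12.8 and 14.3% and Gata1 in 6.84 and 9.09% of thinned erythroid cells. Kit, the receptor of early progenitors, was in 0 of 117 and 0 of 77, which allows a share of up to 3.10 and 4.68% by the Clopper-Pearson interval. Col3a1, of the mesenchyme, was in 14.5 and 6.49% of thinned erythroid cells, against 58.3 and 57.9% of comparison cells. The comparison cells were chosen partly by Col3a1, so their share is not an independent result.

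Between the glands, the erythroid cells differed in few genes. Of 2295 genes with at least 50 CPM in either, 120 (5.23%) were at least 2-fold higher and 175 (7.63%) at least 2-fold lower in submandibular than in parotid erythroid cells. Without the 3 parotid cells that carried endothelial or muscle RNA the counts were 163 and 143. For several of the most different genes the comparison cells of the libraries differed the same way. Pantr1, a noncoding RNA, had 0 UMIs in submandibular erythroid cells and stood at 309.2 CPM in parotid ones, and at 0.362 against 1542 CPM in the comparison cells. Cxcl14, a secreted chemokine, stood at 3.07 CPM in submandibular and 131.2 CPM in parotid erythroid cells, and at 0.678 against 562.5 CPM in the comparison cells. Dlk1, an imprinted gene, stood at 377.8 against 32.8 CPM, and at 2077.6 against 79.3 CPM in the comparison cells. Xist, the noncoding RNA of the silenced X chromosome in female cells, stood at 218.1 against 4.69 CPM in erythroid cells and at 1009 against 19.3 CPM in the comparison cells, and its part in other differences was not tested.

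Other genes differed more between the glands in erythroid cells than in the comparison cells. Hist1h2al, a histone H2A gene, had 1 UMI in submandibular erythroid cells and 49 UMIs in 36 parotid ones, or 3.07 against 229.6 CPM. In the comparison cells it stood at 7.42 against 12.5 CPM. Mafg, a partner of the erythroid factor Nfe2, stood at 193.5 CPM in submandibular erythroid cells, against 42.2 CPM in parotid ones (4.59-fold, 2.27 to 10.5) from 63 UMIs in 47 cells and 9 in 8, and at 38.3 against 19.2 CPM in the comparison cells.

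A further group rested largely or partly on the 3 parotid cells above. Actc1, Myog and Tnnt1, genes of muscle, and Cldn5 and Klf2, genes of endothelium, were lower in submandibular than in parotid erythroid cells. Without those 3 cells, Actc1 stood at 6.14 against 39.1 CPM, Myog at 12.3 against 27.9 CPM and Klf2 at 15.4 against 39.1 CPM, and Cldn5 had 0 parotid UMIs. Tnnt1 rested on them less, with 20 of its 35 parotid UMIs remaining, and was still lower at 15.4 against 111.7 CPM (7.28-fold). Hspa1a, a heat shock gene, did not rest on them, since all 74 of its parotid UMIs remained without them. Of those, 66 were in 1 other cell.

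**Figure D5:**
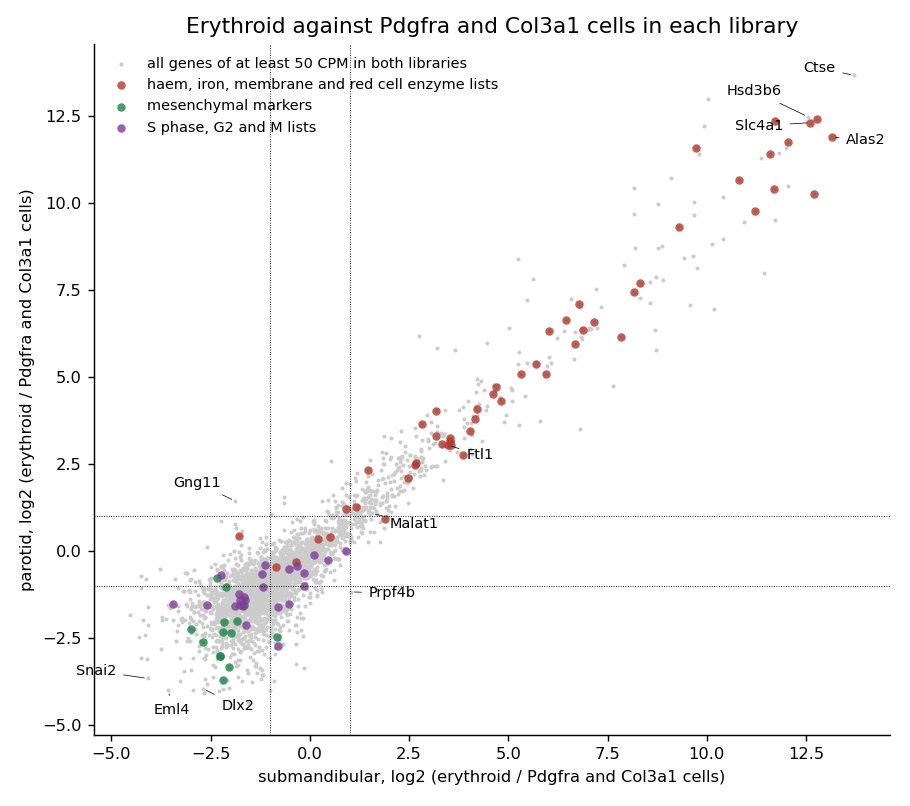
Each point is 1 gene with at least 50 CPM in both libraries. The horizontal axis is its log2 ratio of erythroid to Pdgfra and Col3a1 cells in submandibular mesenchyme and the vertical axis the same in parotid mesenchyme, with dotted lines at 2-fold. Haem and membrane genes such as Alas2 and Slc4a1 lie far up on the right, and mesenchymal markers lie low on the left.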

How the data were processed

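Droplet libraries of submandibular and parotid mesenchyme were used, 1 of each. The files hold UMI counts per gene and barcode, whole numbers deposited without normalization and made by the authors with Cell Ranger 2.1.1 and the mm10 genome, per the submitters' processing notes. The barcodes in the files were taken as they stand, with no filter on genes or mitochondrial share and no doublet caller, so the low-quality cells and doublets among them were not removed.

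Each class of cells had its UMIs added up per library, and sums were scaled to CPM over UMIs of genes other than Hba and Hbb genes. Levels carry exact Poisson, shares Clopper-Pearson and ratios conditional binomial 95% intervals, and 1 UMI was worth 3.07 CPM in submandibular and 4.69 CPM in parotid erythroid cells. Genes past 50 CPM and 2-fold were called, and a class with 0 UMIs entered a ratio as 3 UMIs. From each list up to 6 members called the same way in both libraries were followed, over all genes the 15 highest and 15 lowest by the smaller ratio, and between the libraries 10 each way at 100 CPM. The text names some of these, others are not reported here, and other list members with their values were named after they were seen. The erythroid cells and the 28 gene lists (371 genes, 2 of them not matched by symbol and not analysed here) were chosen with earlier results of these data known.

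Of 27998 genes, 27645 matched GENCODE M21 (GRCm38) by identifier, and coordinates come from it. Scripts used Python 3.11.15, NumPy 2.4.6, SciPy 1.17.1, pandas 2.3.3, Biopython 1.88 and matplotlib 3.10.9, with TMM factors from edgeR 4.0.16 as an alternative scaling only. The class comparison was tested on simulated data. Alternatives changed the scaling, the CPM minimum, the rules for erythroid and comparison cells and the weighting of cells. The epithelium libraries were used only to count erythroid cells and describe their globin shares.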

Additional observations from a re-analysis of the deposited data

Results flagged for a closer look

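For 2 genes the ratio of erythroid to Pdgfra and Col3a1 cells passed 2-fold in opposite directions in the glands, a difference that was not tested. Gng11, a G protein gamma subunit gene, stood at 15.4 against 56.7 CPM in submandibular mesenchyme (log2 -1.886) and at 79.65 against 29.4 CPM in parotid mesenchyme (log2 1.437). Of its 17 parotid erythroid UMIs, 11 were in 1 cell, and without the 3 parotid cells that carried endothelial or muscle RNA it stood at 16.8 against 29.4 CPM (log2 -0.81), so the opposite direction is not seen without them. Prpf4b, a splicing kinase gene, stood at 147.4 against 72.35 CPM in submandibular mesenchyme (log2 1.027) and at 32.8 against 74.1 CPM in parotid mesenchyme (log2 -1.175). Without the 3 cells its parotid log2 ratio was -0.92.

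Erythroid cells were also found in the epithelium libraries, which the comparisons above use only for the Hba-a2 share. The parotid epithelium library held 5 such cells among 1996 barcodes (0.2505%, 0.0814 to 0.584%), all 5 with fewer than 500 genes, against 1 of 3896 in the submandibular epithelium library. Of the parotid epithelium cells 3 had only adult beta-like RNA, and their Hba-a2 share of alpha-like UMIs was 6.64 to 10.7%, against 6.48% in the submandibular epithelium cell.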

How the results depend on the processing

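With CPM over all UMIs, haemoglobin included, higher and lower genes in erythroid cells numbered 60 and 2933 (submandibular) and 56 and 2842 (parotid), and with TMM scaling 877 and 417, and 700 and 611. At 200 CPM they numbered 207 and 354, and 190 and 340, and at 20 CPM the lower ones 3429 and 2710. Of lists with at least 3 genes at 50 CPM, 12 had a submandibular median above 0 under TMM, against 7 without it, and 13 against 10 in parotid cells. CPM over all UMIs turned the log2 ratio of 8 genes in submandibular and parotid cells: Atp5j2 (-0.97, -0.98), Cox6a1 (-1.44, -1.37), Malat1 (-1.07, -1.59), Rps2 (-0.87, -1.30), Rpsa (-1.26, -1.66), Sec61g (-0.41, -0.28), Snx3 (-1.47, -1.40) and Tpt1 (-1.06, -1.40). Between the glands, higher and lower genes numbered 10 and 8 over all UMIs, 17 and 14 at 200 CPM and 442 and 636 at 20 CPM, and the lower ones 281 with 0 Pdgfra and Col3a1 UMIs and 274 without the 10% of cells with the most UMIs. The submandibular adult beta-like, Hbb-bh1 and Hba-x shares were 21.49, 1.948 and 15.65% in cells of 500 or more genes and up to 10% mitochondrial UMIs, 24.13, 1.85 and 14.69% with 0 Pdgfra and Col3a1 UMIs, 23.21, 1.79 and 14.65% without those 10%, 21.92, 2.132 and 15.83% as means over cells, 18.88, 2.001 and 16.08% in embryonic cells only, and 22.4, 1.976 and 13.49% per transcript length. The parotid ones were 25.74, 2.005 and 11.33%, 28.44, 1.831 and 10.4%, 28.76, 1.598 and 10.57%, 29.35% and (Hba-x) 10.62%, 19.95, 2.116 and 11.94%, and 27.64, 1.98 and 9.178% under the same settings in order, 28.08 and 1.822% (adult, Hbb-bh1) at 50% haemoglobin, and 28.24, 1.819 and 10.73% without the 3 cells of other RNA. Hba-a2 was 6.014% (submandibular) and 16.62% (parotid) as a mean over cells, 7.777 and 20.67% per length, and 16.75% (parotid) without those 10%. Of 250 values of 125 named genes, 182 stayed past 2-fold under TMM. The cause of these changes was not tested, except that the CPM minimum sets how many genes are tested. Embryonic cells only, per length and without the 3 cells were chosen after seeing the data. No paired analysis was possible because each gland has 1 library. Counting limits the erythroid classes most, where 50 CPM is 16.3 UMIs in submandibular and 10.7 in parotid cells, and animals, litters and dissections add variation that no interval here covers.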
